A study of Oryza sativa and Oryza rufipogon with 8 samples.

Results

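The resting level of iron-responsive genes was compared between roots of a wild rice, *O. rufipogon*, and roots of the cultivated rice *O. sativa*, both grown with iron. The genes were the 102 ortholog pairs, each made of 1 *O. rufipogon* gene and 1 *O. sativa* gene, that the study had selected because −Fe changed them in the same direction in both species. Of these pairs, 57 were up-regulated and 45 were down-regulated under −Fe. They stand among 37071 genes listed for *O. rufipogon* and 35679 genes listed for *O. sativa*, and they are the genes that the sources used here place in both species. The selection used the response to −Fe, in which the CC libraries took part, and not the difference between the species under CC.

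The *O. rufipogon* plants were of 1 accession and the *O. sativa* plants of 1 cultivar, Nipponbare. Both were at the 3 leaf stage. For 5 days before harvest their solution contained 100 µM Fe-EDTA, the control condition of the study (CC). Of the 8 RNAseq libraries of the series, the 2 *O. rufipogon* CC and the 2 *O. sativa* CC libraries are compared here, each made from the pooled root RNA of 3 biological replicates. The 2 −Fe libraries of each species came from the same kinds of plants kept without added Fe for those 5 days, and they appear where stated. Species, accession and the set of transcripts used for counting change together in this comparison and cannot be told apart. No sequences are printed, because no table with those of these genes was used here, and the tissue label was not checked against root marker genes, because the reference table did not pair them with identifiers of either species.

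Rice roots take up Fe by a combined strategy. They release deoxymugineic acid, a phytosiderophore made from methionine by way of S-adenosylmethionine and nicotianamine, and take up the Fe(III) complex again through the transporter YSL15. They also take up Fe(II) directly through IRT1, as plants outside the grasses do. The bHLH transcription factor IRO2 activates the phytosiderophore branch in *O. sativa*, whereas IRO3 and the iron-binding ubiquitin ligases HRZ1 and HRZ2 restrain the response. The roles given below are known from *O. sativa* or other plants, and the *O. rufipogon* genes are named after their *O. sativa* partners.

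Levels are estimated counts summed over the transcripts of a gene and scaled to counts per 1000000 of the library (CPM). Transcript lengths given below are those listed in the set of transcripts used for each species. They were not measured in these plants. The libraries held 14758304 and 17256880 estimated counts in *O. rufipogon* CC and 22911261 and 23019020 in *O. sativa* CC, so that 3 counts correspond to 0.203 and 0.174 CPM in *O. rufipogon* and to 0.131 and 0.130 CPM in *O. sativa*. The libraries of a group differed by more than sampling noise, with a chi-square per degree of freedom over genes of 26.8 in *O. rufipogon* CC and 7.56 in *O. sativa* CC. The species were compared with the quasi-likelihood test of edgeR. A pair counted as different when its Benjamini-Hochberg adjusted p (FDR) was under 0.05 over all pairs tested. Each log2 difference is *O. rufipogon* over *O. sativa*, with its standard error (SE). The p values measure the spread between 2 libraries per species. An exact permutation test of 2 against 2 libraries could not go below a two-sided p of 0.333 for a single gene.

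Under CC, most pairs differed between the species, in both directions, and the direction followed the response to −Fe. Of the 102 pairs, 100 reached 5 counts or more in 2 or more libraries and were tested, and 80 of them differed (80%). The level was higher in *O. rufipogon* for 35 pairs (35%) and lower for 45 pairs (45%). Among the pairs up-regulated under −Fe, 42 of the 55 tested were lower in *O. rufipogon*, 1 was higher and 12 did not pass the test, with a median log2 difference of -1.26. Of these 42, 5 passed the filter on counts through *O. sativa* alone and so could be called in 1 direction only. With at least 10 counts required in every library, 34 of 49 up-regulated pairs were lower and 1 was higher. Among the 45 pairs down-regulated under −Fe, 34 were higher in *O. rufipogon*, 3 were lower and 8 did not pass, with a median log2 difference of 0.85. Over all tested pairs the median was -0.23, so that relative to the median pair the up-regulated pairs lay at -1.03 and the down-regulated pairs at 1.08. Of the pairs that differed, 54 had a log2 difference of at least 1 in size, 20 of them higher and 34 lower in *O. rufipogon*. In bulk roots, fewer cells of a type and less RNA per cell cannot be told apart for any of these genes. The CPM ranges of the *O. rufipogon* and the *O. sativa* libraries did not overlap in 92 of the 100 tested pairs.

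**Figure D1:**
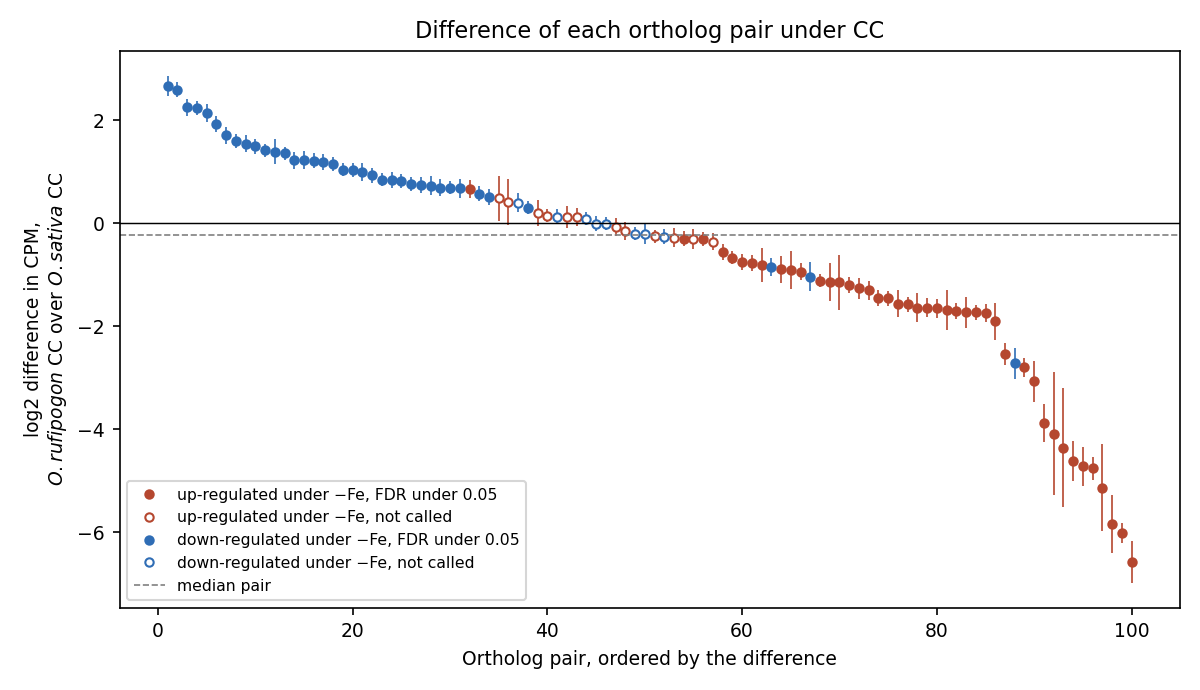
The log2 difference in CPM, *O. rufipogon* CC over *O. sativa* CC, of the 100 tested ortholog pairs in order, with bars of 1 SE and filled points at an FDR under 0.05. Pairs down-regulated under −Fe fill the upper end and pairs up-regulated under −Fe fill the lower end, and the dashed line marks the median pair at -0.23.

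The same contrast can be seen inside each library, where the scaling between the species drops out. The median log2(CPM + 0.5) of the up-regulated pairs was below that of the down-regulated pairs by 2.46 and 2.70 in *O. rufipogon* CC, against 0.79 and 0.74 in *O. sativa* CC. In terms of rank by TPM among all genes listed for the species, the median up-regulated pair stood at percentile 74.6 and 75.3 in *O. rufipogon* and at 81.8 and 84.1 in *O. sativa*. The median down-regulated pair stood at percentile 95.0 and 95.5 in *O. rufipogon* and at 91.4 in both *O. sativa* libraries. These ranks include genes with 0 counts, whose share differed. Counts were above 0 for 22923 and 23532 of 37071 genes in *O. rufipogon* CC. In *O. sativa* CC this was so for 28568 and 28189 of 35679 genes, so the percentiles are not on the same scale in both species. The up-regulated pairs together took 0.301% and 0.270% of the counts in *O. rufipogon*, against 0.556% and 0.575% in *O. sativa*. The down-regulated pairs took 0.883% and 0.967% in *O. rufipogon*, against 0.448% and 0.455% in *O. sativa*.

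**Figure D2:**
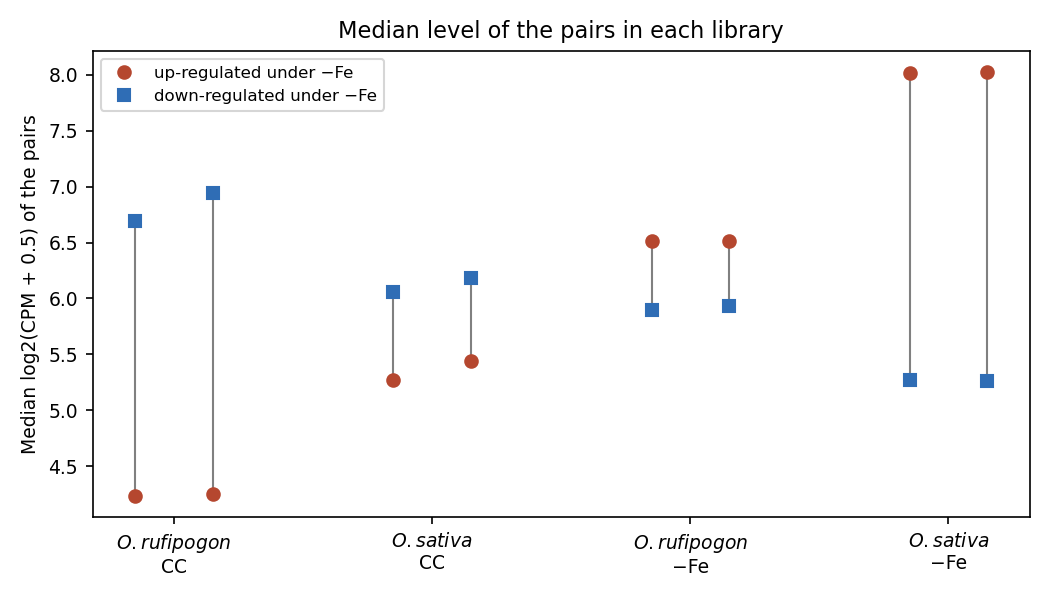
The median log2(CPM + 0.5) of the 55 up-regulated and 45 down-regulated pairs in each of the 8 libraries, with a line joining the medians of a library. Under CC the down-regulated pairs lie above the up-regulated pairs in all 4 libraries, by 2.46 and 2.70 in *O. rufipogon* and by 0.79 and 0.74 in *O. sativa*, while under −Fe the up-regulated pairs lie above the down-regulated pairs in all 4 libraries.

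The 3 pairs that encode enzymes from S-adenosylmethionine to deoxymugineic acid were lower in *O. rufipogon* under CC. Other copies of these enzymes are not among the pairs and were not compared. All 3 pairs were up-regulated under −Fe, and 42 of all 55 up-regulated pairs were lower, with a median log2 difference of -1.26. *NAS1* (OS03G0307300 and ORUFI03G15260, chromosome 3 in both species) encodes nicotianamine synthase, the first enzyme of this branch. *NAS1* had 5.29 and 3.25 CPM in *O. rufipogon*, against 248 and 298 CPM in *O. sativa*. The difference was -6.02 ± 0.20 on the log2 scale (SE, FDR = 9.76e-20), or 64.7-fold lower in *O. rufipogon*, and the *O. sativa* gene shared reads with another gene. The *O. rufipogon* transcript of *NAS1* was 0.638 times as long as that of *O. sativa*, and the difference in log2(TPM + 0.1) was -5.12. *DMAS* (OS03G0237100, ORUFI03G09980), the deoxymugineic acid synthase at the end of the branch, had 9.82 and 8.40 CPM in *O. rufipogon* and 62.4 and 43.0 CPM in *O. sativa*, a log2 difference of -2.53 ± 0.21 (FDR = 2.49e-13). *NAAT1* (OS02G0306401, ORUFI02G13810), the nicotianamine aminotransferase between them, had 68.5 and 44.7 CPM in *O. rufipogon* and 180 and 187 CPM in *O. sativa*, a log2 difference of -1.70 ± 0.16 (FDR = 3.99e-10). The libraries of the species did not overlap for any of these genes, which was so for 92 of the 100 tested pairs. In log2(TPM + 0.1) *DMAS* and *NAAT1* were lower in *O. rufipogon*, with differences of -1.87 and -1.48.

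Within a library, the make-up of the branch differed as well. Per transcript length, the TPM of *NAS1* was 0.130 and 0.122 times that of *NAAT1* in *O. rufipogon*, against 1.48 and 1.71 times in *O. sativa*. The TPM ratio of *DMAS* to *NAAT1* overlapped between the species, at 0.219 and 0.287 in *O. rufipogon* and 0.402 and 0.267 in *O. sativa*. Among 20 iron acquisition genes ranked by TPM, *NAS1* was in place 17 in both *O. rufipogon* libraries and in place 2 in both *O. sativa* libraries.

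The methionine cycle recovers the methylthio group that nicotianamine synthesis sets free, and its genes were lower in *O. rufipogon* under CC about as often as the other up-regulated pairs. Of the 9 pairs of the cycle and of the enzymes that handle its by-products, 7 were lower in *O. rufipogon*, none was higher and 2 did not pass, with a median log2 difference of -1.19. All 9 were up-regulated under −Fe, and 42 of all 55 up-regulated pairs were lower, with a median of -1.26. *MTK1* (OS04G0669800), methylthioribose kinase, had 74.7 and 45.3 CPM in *O. rufipogon* and 195 and 205 CPM in *O. sativa*, a log2 difference of -1.74 ± 0.18 (FDR = 9.58e-09). The methylthioadenosine nucleosidase OS06G0112200 (MTAN), which supplies its substrate, had 52.9 and 53.1 CPM in *O. rufipogon* and 119 and 123 CPM in *O. sativa* (-1.19 ± 0.15, FDR = 1.84e-09). Among the later steps, the methylthioribulose-1-phosphate dehydratase OS11G0484000 (-1.45) and the aminotransferase OS09G0453800 (-1.57) were lower to a like extent. The later step *ARD2* was not lower in CPM and is given below. Adenine phosphoribosyltransferase OS12G0589100, which recycles the adenine released by the nucleosidase, had 211 and 193 CPM in *O. rufipogon* and 537 and 569 CPM in *O. sativa* (-1.45 ± 0.14). The ribose-phosphate pyrophosphokinase OS02G0714600 differed less, by -0.94. Formate dehydrogenase OS06G0486800, which handles the formate set free by the cycle, did not pass the test, with 153 and 163 CPM in *O. rufipogon* and 174 and 201 CPM in *O. sativa* (-0.25 ± 0.13, FDR = 0.073). It passed when either *O. rufipogon* library was left out (-0.21, FDR = 0.043, and -0.30, FDR = 0.00341). The effective length differed by more than 1.5-fold for MTAN (ratio 1.51) and for OS12G0589100 (0.551), and both were lower in *O. rufipogon* per length, by -1.54 and -0.35 in log2(TPM + 0.1).

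Other genes of the cycle, *SAM2* and *ARD2*, depended on the measure. *SAM2* (OS01G0323600), an S-adenosylmethionine synthase, had 254 and 194 CPM in *O. rufipogon* and 266 and 286 CPM in *O. sativa*, a small difference of -0.30 ± 0.13 (FDR = 0.039). Per length *SAM2* was higher in *O. rufipogon*, by 0.51 on the log2(TPM + 0.1) scale (FDR = 0.0107). *ARD2* (OS03G0161800), the acireductone dioxygenase of the cycle, had 227 and 207 CPM in *O. rufipogon* and 199 and 191 CPM in *O. sativa* (0.15 ± 0.13, FDR = 0.262), but differed by -1.10 in log2(TPM + 0.1), since its *O. rufipogon* transcripts were 2.57 times as long. The call of *SAM2* was lost without *O. sativa* library 1 or 2 (FDR = 0.159 and 0.334) and without *O. rufipogon* library 2 (FDR = 0.321), while *ARD2* passed without *O. rufipogon* library 2 (0.22, FDR = 0.040).

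All 6 pairs listed for iron transport had a lower fitted level in *O. rufipogon*, and 5 passed the test. The pair that did not pass, *VIT2*, was down-regulated under −Fe. The 5 that passed were up-regulated, and of all up-regulated pairs 42 of 55 were lower. *IRT1* (OS03G0667500 and ORUFI03G29910, chromosome 3), the Fe(II) transporter of the root surface, had 2.54 and 3.18 CPM in *O. rufipogon* and 87.4 and 67.5 CPM in *O. sativa*. Its log2 difference was -4.75 ± 0.22 (FDR = 4.11e-22), or 27.0-fold lower in *O. rufipogon*. The gene shared reads with another gene in both species. Its close relative *IRT2* (OS03G0667300, ORUFI03G29890) was near the limit of detection, with 1 count over both *O. rufipogon* libraries and 29 over both *O. sativa* libraries. The ratio of *O. rufipogon* to *O. sativa* for *IRT2* was 0.0495, with an exact 95% interval of 0.00121 to 0.298 that covers counting error only. *IRT2* passed the filter through *O. sativa* alone, and its call (FDR = 0.00195) was lost when either *O. sativa* library was left out, with an FDR of 0.109 and 0.163.

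*YSL15* (OS02G0650300, ORUFI02G27480), the transporter of Fe(III)-deoxymugineic acid, was lower in *O. rufipogon* by much less than *IRT1*. *YSL15* had 42.5 and 40.1 CPM in *O. rufipogon* and 141 and 133 CPM in *O. sativa* (-1.73 ± 0.15, FDR = 1.00e-13). *NRAMP1* (OS07G0258400), a metal transporter of the Nramp family, had 14.6 and 15.9 CPM in *O. rufipogon* and 42.3 and 52.8 CPM in *O. sativa* (-1.64 ± 0.19, FDR = 1.27e-10). *YSL9* (OS04G0542200), of the same family as *YSL15*, had 27.9 and 22.7 CPM in *O. rufipogon* and 62.9 and 61.6 CPM in *O. sativa* (-1.30 ± 0.18, FDR = 7.72e-09). The vacuolar iron transporter *VIT2* (OS09G0396900), which loads Fe into the vacuole and is the down-regulated member of this group, did not pass, with 25.7 and 24.6 CPM in *O. rufipogon* and 28.0 and 29.8 CPM in *O. sativa* (-0.20 ± 0.19, FDR = 0.321). In log2(TPM + 0.1) the differences were -4.15 for *IRT1*, -1.57 for *YSL15*, -1.48 for *NRAMP1*, -0.79 for *YSL9* and -0.36 for *VIT2*, the last with an FDR of 0.0752. With effective length as an offset in edgeR, *VIT2* passed (-0.60, FDR = 0.00405).

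The balance between the Fe(II) and the Fe(III) transporter differed within the libraries. The TPM of *IRT1* was 0.108 and 0.144 times that of *YSL15* in *O. rufipogon*, against 0.848 and 0.690 times in *O. sativa*. The TPM ratio of *NRAMP1* to *YSL15* overlapped between the species, at 0.326 and 0.374 in *O. rufipogon* and 0.284 and 0.384 in *O. sativa*. *IRT1* was in place 19 of the 20 iron acquisition genes by TPM in both *O. rufipogon* libraries, ahead of *IRT2* alone, and in places 9 and 10 in the *O. sativa* libraries.

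**Figure D3:**
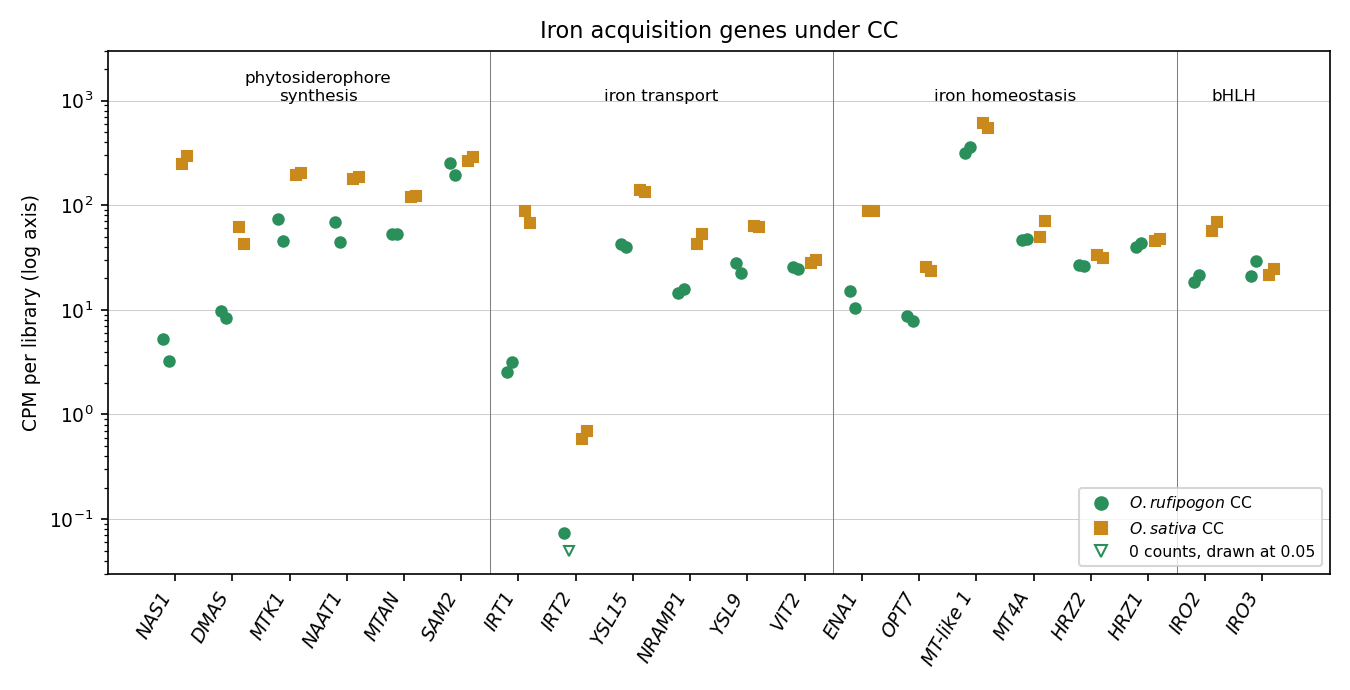
CPM of each CC library on a log axis for the 20 iron acquisition genes, *O. rufipogon* as circles to the left and *O. sativa* as squares to the right of each gene, grouped by role. *NAS1* and *IRT1* show the widest gaps of the genes drawn, apart from the low counts of *IRT2*, while *HRZ1*, *HRZ2*, *VIT2* and *IRO3* lie close together in both species. A library of *IRT2* with 0 counts is drawn at 0.05.

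Among the other genes of iron homeostasis, *ENA1* (OS11G0151500), an exporter of nicotianamine, had 15.1 and 10.5 CPM in *O. rufipogon* and 88.8 and 88.4 CPM in *O. sativa* (-2.80 ± 0.19, FDR = 9.84e-16). *OPT7* (OS03G0751100), an oligopeptide transporter, had 8.81 and 7.88 CPM in *O. rufipogon* and 25.8 and 23.5 CPM in *O. sativa* (-1.56 ± 0.26, FDR = 7.40e-07). Both were lower in *O. rufipogon* per length too, by -2.17 and -1.32 in log2(TPM + 0.1). Over all 11 metal transporter pairs, 9 were lower in *O. rufipogon* and none was higher, with a median log2 difference of -1.64, while *VIT2* and *ZIP4* did not pass. *VIT2* and *NRAMP7* were down-regulated under −Fe and the other pairs of this list up-regulated. Of all up-regulated pairs 42 of 55 were lower, and of all down-regulated pairs 3 of 45. *ZIP4* (OS08G0207500), a zinc transporter, had 29.6 and 21.9 CPM in *O. rufipogon* and 29.97 and 33.4 CPM in *O. sativa* (-0.30 ± 0.19, FDR = 0.141), and it passed when *O. rufipogon* library 1 was left out (-0.53, FDR = 0.0146). *COPT5.1* (OS09G0440700), a copper transporter, had 1.08 and 2.03 CPM in *O. rufipogon* and 14.1 and 12.4 CPM in *O. sativa* (-3.06 ± 0.40, FDR = 2.58e-09), with an *O. rufipogon* transcript 0.536 times as long and a difference of -1.99 in log2(TPM + 0.1). *NRAMP7* (OS12G0581600), down-regulated under −Fe, was nevertheless lower in *O. rufipogon*, with 27.8 and 33.3 CPM against 55.7 and 53.8 CPM in *O. sativa* (-0.84 ± 0.17, FDR = 2.41e-05), though it did not pass in TPM (-0.30, FDR = 0.163).

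The regulators of the iron response had small fitted differences, apart from *IRO2*. Of 4 pairs, *IRO2* alone passed the test under CC, and the median log2 difference was -0.21, against -0.23 over all tested pairs. All 4 were up-regulated under −Fe. Of all 55 up-regulated pairs tested, 42 were lower, 1 was higher and 12 did not pass, with a median of -1.26. *HRZ1* (OS01G0689451) had 40.1 and 43.7 CPM in *O. rufipogon* and 45.6 and 47.6 CPM in *O. sativa* (-0.15 ± 0.17, FDR = 0.409). *HRZ2* (OS05G0551000) had 27.0 and 26.4 CPM in *O. rufipogon* and 33.2 and 31.4 CPM in *O. sativa* (-0.28 ± 0.18, FDR = 0.156). *IRO3* (OS03G0379300) had 21.1 and 29.1 CPM in *O. rufipogon* and 21.6 and 24.7 CPM in *O. sativa* (0.12 ± 0.21, FDR = 0.576), and its libraries overlapped. *IRO2* (OS01G0952800 and ORUFI01G47560, chromosome 1) had 18.3 and 21.7 CPM in *O. rufipogon* and 56.8 and 69.0 CPM in *O. sativa* (-1.65 ± 0.18, FDR = 2.74e-11).

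These differences of the regulators changed with the length of the transcripts. The listed *O. rufipogon* transcript of *IRO2* had an effective length of 719 nt, against 2347 nt in *O. sativa*. In log2(TPM + 0.1) *IRO2* differed by 0.30 (FDR = 0.154), with 35.8 and 42.4 TPM in *O. rufipogon* and 28.7 and 34.9 TPM in *O. sativa*. In contrast, *IRO3* and *HRZ2* had the longer transcripts in *O. rufipogon*, 2.04 and 1.57 times those in *O. sativa*, and were lower there in log2(TPM + 0.1), by -0.68 (FDR = 0.0224) and -0.67 (FDR = 0.023). Within a library, the TPM of *IRO2* was 2.71 and 2.34 times that of *IRO3* in *O. rufipogon* and 1.24 and 1.31 times in *O. sativa*. That of *HRZ1* was 1.73 and 1.93 times that of *HRZ2* in *O. rufipogon* and 0.874 and 0.964 times in *O. sativa*.

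The direction of the metal binding peptides depended on the measure. In CPM all 3 pairs had a negative fitted difference and 1 was called lower. OS12G0568500 and *MT4A* were up-regulated under −Fe and *OsCDT5* was down-regulated. Of all up-regulated pairs 42 of 55 were lower in CPM, and of all down-regulated pairs 3 of 45. In log2(TPM + 0.1) 2 of the metal binding peptide pairs were called higher and 1 was not called. The metallothionein-like gene OS12G0568500 had 315 and 360 CPM in *O. rufipogon* and 610 and 544 CPM in *O. sativa* (-0.77 ± 0.15, FDR = 1.31e-05), yet it was higher in *O. rufipogon* per length (0.48 in log2(TPM + 0.1), FDR = 0.0151), with transcripts 0.497 times as long. *MT4A* (OS12G0570700), a metallothionein, had 46.7 and 47.2 CPM in *O. rufipogon* and 49.7 and 70.4 CPM in *O. sativa* (-0.35 ± 0.17, FDR = 0.0561), and passed without *O. sativa* library 1 (-0.58, FDR = 0.0192) and with the effective length offset (-0.66, FDR = 0.000834). *OsCDT5* (OS05G0178300), similar to a cadmium tolerance peptide, had 89.0 and 82.2 CPM in *O. rufipogon* and 85.6 and 86.2 CPM in *O. sativa* (-0.0057 ± 0.15, FDR = 0.97). Its *O. rufipogon* transcript was 0.336 times as long, and per length it was higher in *O. rufipogon*, by 1.81 in log2(TPM + 0.1) (FDR = 2.16e-07).

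The genes of phosphate supply and membrane lipid remodelling went the other way. When phosphate is short, plants release it from organic compounds with acid phosphatases and replace phospholipids with galactolipids, and SPX proteins sense the phosphate status. All 12 pairs of this list were down-regulated under −Fe. Under CC, 11 of them were higher in *O. rufipogon*, none was lower and 1 did not pass, with a median log2 difference of 1.21. Over all down-regulated pairs, 34 of 45 were higher, with a median of 0.85. The same count, 11 higher and none lower, was obtained in log2(TPM + 0.1). The list was put together with earlier results of these data known, and the plants of both species received the same nutrient solution.

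Among the phosphatases, the probable inactive purple acid phosphatase 16 (OS01G0941800) had the highest log2 difference of the tested pairs that were higher in *O. rufipogon*, with 61.3 and 54.0 CPM in *O. rufipogon* and 8.25 and 9.86 CPM in *O. sativa* (2.67 ± 0.19, FDR = 1.33e-16). *OsPAP3b* (OS10G0116800) had 81.0 and 73.6 CPM in *O. rufipogon* and 18.1 and 16.7 CPM in *O. sativa* (2.15 ± 0.18, FDR = 6.29e-15). The purple acid phosphatases OS03G0238600 and OS01G0776600 (PAP10) differed by 1.23 ± 0.17 and 1.22 ± 0.14. OS03G0238600 was among the most abundant genes of the list, with 938 and 837 CPM in *O. rufipogon* and 372 and 386 CPM in *O. sativa*. All of these phosphatase pairs were also higher in *O. rufipogon* per length, by 1.02 to 3.35 in log2(TPM + 0.1).

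The lipid enzymes and the SPX genes showed the same direction. The glycosyl transferase OS01G0142300 had 438 and 511 CPM in *O. rufipogon* and 100 CPM in each *O. sativa* library (2.25 ± 0.14, FDR = 5.50e-19). A glycerophosphoryl diester phosphodiesterase (GDPD, OS02G0514500), of a family that breaks down deacylated phospholipids, had 670 and 907 CPM in *O. rufipogon* and 244 and 236 CPM in *O. sativa* (1.71 ± 0.17, FDR = 1.40e-11), with *O. rufipogon* transcripts 1.71 times as long and a difference of 1.17 in log2(TPM + 0.1). *MGD3* (OS02G0802700), which makes monogalactosyldiacylglycerol, had 197 and 200 CPM in *O. rufipogon* and 94.6 and 98.4 CPM in *O. sativa* (1.04 ± 0.13, FDR = 1.40e-09). The digalactosyldiacylglycerol synthase OS03G0214400 (DGD2) differed by 0.51 ± 0.15 (FDR = 0.00252), a call that was lost when either *O. sativa* library was left out (FDR = 0.0533 and 0.0711). A probable glycerol-3-phosphate dehydrogenase (GPDH, OS01G0801600) differed by 0.75 ± 0.15 (FDR = 1.54e-05). *SPX1* (OS06G0603600) had 223 and 301 CPM in *O. rufipogon* and 150 and 158 CPM in *O. sativa* (0.77 ± 0.14, FDR = 6.88e-06).

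*SPX2* and *IPP* depended on the measure. *SPX2* had 95.1 and 122 CPM in *O. rufipogon* and 53.9 and 41.1 CPM in *O. sativa* (1.19 ± 0.16, FDR = 6.89e-08), but its partners lie on different chromosomes, OS02G0202200 on chromosome 2 and ORUFI03G26300 on chromosome 3. Its *O. rufipogon* transcripts were 2.49 times as long, and in log2(TPM + 0.1) *SPX2* differed by 0.12 (FDR = 0.542). The soluble inorganic pyrophosphatase *IPP* (OS02G0704900), which splits pyrophosphate into phosphate, had 89.4 and 83.6 CPM in *O. rufipogon* and 101 and 106 CPM in *O. sativa* (-0.26 ± 0.15, FDR = 0.104), and it passed when either *O. rufipogon* library was left out (-0.31, FDR = 0.00347, and -0.21, FDR = 0.0301). In log2(TPM + 0.1) *IPP* was higher in *O. rufipogon*, by 0.74 (FDR = 0.000211).

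**Figure D4:**
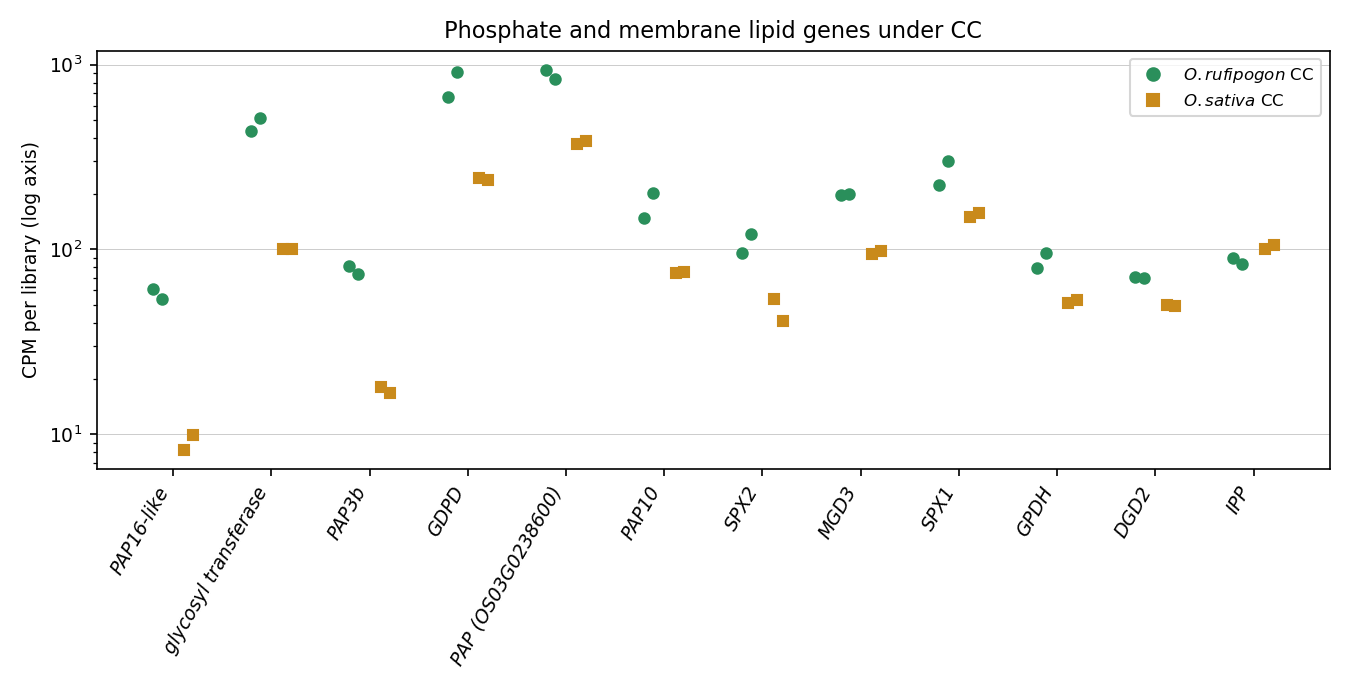
CPM of each CC library on a log axis for the 12 phosphate and membrane lipid genes, *O. rufipogon* as circles to the left and *O. sativa* as squares to the right of each gene, ordered by the log2 difference. The *O. rufipogon* libraries lie above the *O. sativa* libraries in 11 genes and below them in *IPP*.

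Outside these lists, the extremes at both ends were again split by the response to −Fe. Among the 10 pairs with the lowest log2 differences, all up-regulated under −Fe, 7 carry no gene name and are described by their identifiers. OS01G0608101 differed by -6.57 ± 0.41, with 0.519 and 0.151 CPM in *O. rufipogon* and 31.6 and 35.0 CPM in *O. sativa*. Its *O. rufipogon* transcript was 0.197 times as long, and the difference was -4.17 in log2(TPM + 0.1). OS03G0736900 differed by -5.83 ± 0.56, with 0.339 and 0.116 CPM in *O. rufipogon* and 13.9 and 11.8 CPM in *O. sativa*, while the lengths of its partners were alike (ratio 0.966). The 3-ketoacyl-CoA synthase OS02G0731900, of a family that elongates fatty acids, had 2 counts over both *O. rufipogon* libraries and 111 over both *O. sativa* libraries, a ratio of 0.0258 with an exact 95% interval of 0.00309 to 0.0956. OS01G0952900, with an *O. rufipogon* transcript 0.642 times as long, had 1 count in *O. rufipogon* and 35 in *O. sativa*, a ratio of 0.0410 (0.00101 to 0.244), and its call was lost when either *O. sativa* library was left out, with an FDR of 0.123 and 0.066. OS10G0195250, paired with ORUFI12G07700 on chromosome 12, had 1.06 and 0.777 CPM in *O. rufipogon* and 21.6 and 26.5 CPM in *O. sativa* (-4.72 ± 0.38). OS01G0495701 and OS02G0509500 differed by -4.61 ± 0.39 and -3.87 ± 0.37, with *O. rufipogon* transcripts 0.153 and 0.388 times as long, and in log2(TPM + 0.1) by -1.62 and -2.39. *IRT2*, OS01G0952900, OS02G0731900, OS01G0608101 and OS03G0736900 passed the filter through *O. sativa* alone and so could pass the test in 1 direction. Reads were shared with another gene in both species for OS01G0608101, OS01G0495701 and OS02G0731900, and in *O. sativa* alone for OS01G0952900. For OS03G0736900 and OS02G0509500 they were shared in neither species under CC.

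At the upper end, all 10 pairs were down-regulated under −Fe, and 4 of them belong to the phosphate list. The nucleoside-triphosphatase OS11G0126800 had 251 and 219 CPM in *O. rufipogon* and 38.6 and 39.0 CPM in *O. sativa* (2.60 ± 0.14, FDR = 6.27e-21), and it differed by 2.05 in log2(TPM + 0.1), with *O. rufipogon* transcripts 1.73 times as long. A lipase precursor, OS07G0668700, had 92.5 and 99.4 CPM in *O. rufipogon* and 19.0 and 21.2 CPM in *O. sativa* (2.26 ± 0.17, FDR = 2.03e-16). A transporter of the major facilitator family, OS08G0156600, had 705 and 742 CPM in *O. rufipogon* and 183 and 198 CPM in *O. sativa* (1.92 ± 0.15, FDR = 4.36e-15). *4CL1* (OS08G0245200), a 4-coumarate-CoA ligase of phenylpropanoid metabolism, had 188 and 224 CPM in *O. rufipogon* and 66.2 and 69.3 CPM in *O. sativa* (1.61 ± 0.14, FDR = 1.99e-14). OS01G0906000 and OS04G0627300 differed by 1.55 ± 0.16 and 1.49 ± 0.15, the second with a length ratio of 1.504. In log2(TPM + 0.1) the first of them differed by 0.15 (FDR = 0.311), its *O. rufipogon* transcript being 3.12 times as long.

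Among the remaining transporters and transcription factors, the nitrate transporter-like gene OS11G0235200 was lower in *O. rufipogon*, with 7.79 and 5.60 CPM against 22.4 and 19.2 CPM in *O. sativa* (-1.64 ± 0.28, FDR = 1.46e-06). The nucleobase-ascorbate transporter OS08G0369000 did not pass (0.20 ± 0.26, FDR = 0.454), with transcripts 1.93 times as long in *O. rufipogon*. The ABC-2 type transporter OS06G0554800 had 341 and 382 CPM in *O. rufipogon* and 162 CPM in each *O. sativa* library (1.16 ± 0.13, FDR = 7.83e-11), but differed by -0.09 in log2(TPM + 0.1) (FDR = 0.518), with a length ratio of 2.20. The zinc finger gene OS07G0573300 had 94.5 and 101 CPM in *O. rufipogon* and 49.7 and 52.5 CPM in *O. sativa* (0.94 ± 0.15, FDR = 1.96e-07), with a length ratio of 1.52 and a difference of 0.58 in log2(TPM + 0.1). The pairs that ran against the common direction were named after their values had been seen. OS03G0431800 was up-regulated under −Fe and yet higher in *O. rufipogon* (0.67 ± 0.17), and *NRAMP7*, OS04G0438600 (-1.04 ± 0.28) and the receptor-like kinase OS09G0356000 (-2.72 ± 0.30) were down-regulated under −Fe and lower in *O. rufipogon*. The *O. rufipogon* transcript of OS04G0438600 was 0.640 times as long, and in log2(TPM + 0.1) the pair did not pass (-0.16, FDR = 0.524).

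The pairs left out of the test were both up-regulated under −Fe and nearly silent under CC. OS06G0628032 had 0 counts in both *O. rufipogon* libraries, which allows up to 0.203 and 0.174 CPM, and 0.136 and 0.313 CPM in *O. sativa*. OS08G0557200, annotated as a calcineurin-like phosphoesterase, had 0.0678 and 0 CPM in *O. rufipogon* and 0.262 and 0.0869 CPM in *O. sativa*. Over both libraries OS06G0628032 had 0 counts in *O. rufipogon* and 10 in *O. sativa*, a ratio with an exact 95% interval of 0 to 0.640. For OS08G0557200, with 1 count in *O. rufipogon* and 8 in *O. sativa*, the interval was 0.00404 to 1.34, so that a difference was not detectable at this depth.

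The listed lengths of the paired transcripts moved with the differences. How completely each species' set lists a transcript can enter both CPM and TPM, and this was not tested. In 35 of the 102 pairs the effective lengths, weighted by counts, differed by more than 1.5-fold, with the *O. rufipogon* gene shorter in 16 and longer in 19. The *O. rufipogon* gene was 0.874 times as long in the median up-regulated pair and 1.18 times as long in the median down-regulated pair. Across the 100 tested pairs, Pearson's r between the log2 difference in CPM and the log2 ratio of lengths was 0.55 (Spearman's rho 0.55). Pairs share their libraries, so this is a description over genes. In log2(TPM + 0.1), which takes length into account, r was 0.21 (rho 0.17), and 6 of the 80 pairs that differed in CPM changed sign. In that measure, 37 of the 55 up-regulated pairs were lower and 3 higher in *O. rufipogon*, with a median of -0.97. Of the 45 down-regulated pairs, 31 were higher and 2 lower, with a median of 0.83.

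**Figure D5:**
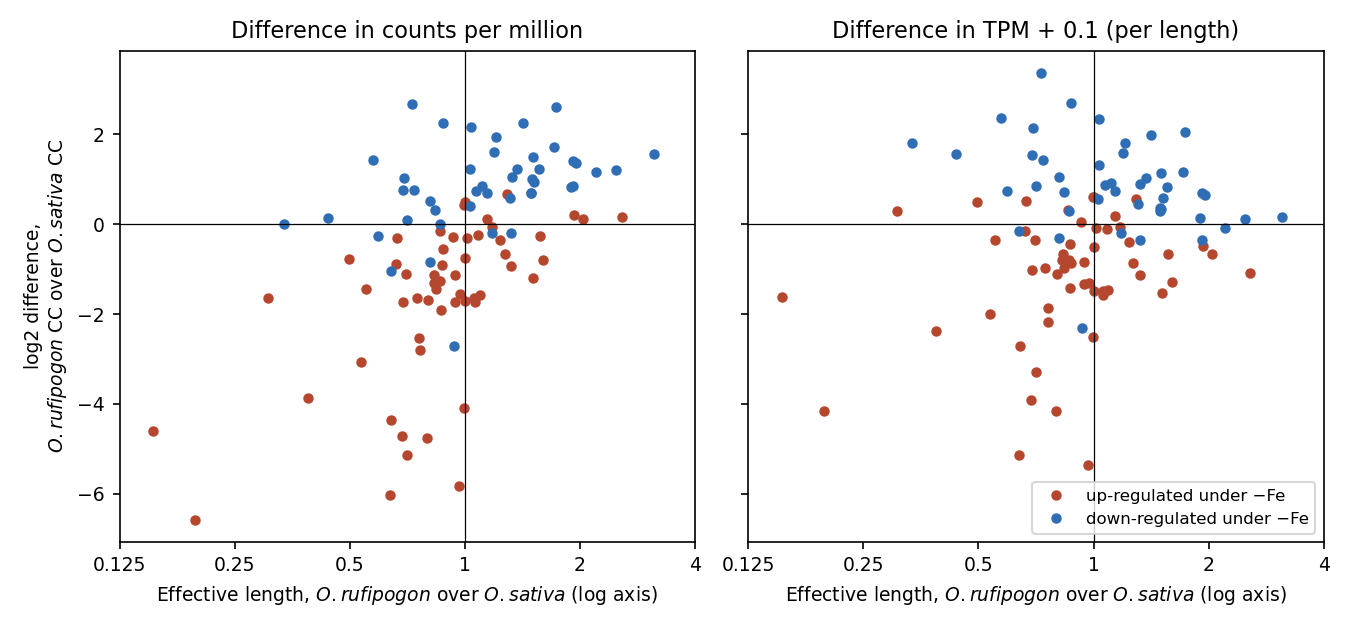
The log2 difference of each tested pair, *O. rufipogon* CC over *O. sativa* CC, against the ratio of effective lengths on a log axis, in CPM (left) and in TPM + 0.1 (right). The slope visible in CPM (r of 0.55) is smaller in TPM (r of 0.21), and the up-regulated pairs stay mostly below and the down-regulated pairs mostly above 0.

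Reads shared between related genes are a further limit. Among the pairs, 35 *O. rufipogon* genes and 42 *O. sativa* genes had estimated counts in the CC libraries that were not whole, because reads had been divided with another gene. In at least 1 species 51 pairs were affected. The −Fe libraries were not used for this, and some genes counted as sharing no reads, such as *YSL9*, had sums there that were not whole. Across all genes, this was so for 19.8% in *O. rufipogon* and 33.3% in *O. sativa*. Among the 20 iron acquisition genes, reads were shared in both species for *IRT1*, *IRT2*, *HRZ1*, *HRZ2*, *MT4A* and OS12G0568500. They were shared in *O. sativa* alone for *SAM2*, *DMAS*, *NAS1*, *MTK1*, *YSL15*, *NRAMP1* and *IRO2*, and in *O. rufipogon* alone for *IRO3*. A total of 34 tested pairs were alike in length, lay on the same chromosome and shared no reads in the CC libraries of either species. Fitted on their own, these pairs gave 14 of 20 up-regulated pairs lower in *O. rufipogon*, with a median of -1.04, and 10 of 14 down-regulated pairs higher, with a median of 0.77.

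The −Fe libraries showed differences mostly in the same direction. Under −Fe, 88 of the 102 pairs differed between the species (86.3%), and 73 of the 80 pairs called under CC were called with the same sign, whereas 3 were called with the opposite sign, *SAM2*, *R40C1* and OS09G0129600 (named after their values had been seen). The log2 difference of *IRT1* was -1.57 under −Fe against -4.75 under CC, that of *NAS1* -1.65 against -6.02, and that of *HRZ1* -1.31 against -0.15. The differences between treatments in these values were not tested.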

How the data were processed

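RNAseq of roots gave 8 libraries, 2 for each species and treatment. The authors discarded low quality reads (PHRED under 30), trimmed adapters, cut 12 nt from the 5′ end and estimated transcript abundance with kallisto, separately on the transcripts of each species. They deposited estimated counts per transcript, with lengths, and TPM per transcript. The submitters' notes name the build IRGSP-1.0 for all libraries, although the *O. rufipogon* identifiers are of that species. Versions of kallisto and of the transcript sets are not given in the sources used here.

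Estimated counts were summed per gene, rounded, and tested with edgeR 4.0.16 (robust quasi-likelihood fit) in R 4.3.3. The fit held 1 row per pair, the 4 CC libraries, library totals as sizes and no further scaling, and pairs with at least 5 counts in at least 2 libraries. The SE is the size of the log2 difference divided by the square root of F. The test was tried on simulated counts in 5 draws of 100 pairs, and it recovered 100% of 2-fold changes and called 2.67% of unchanged pairs. Changes were placed only on pairs with higher counts, and every pair had the same spread, the common value of this fit. The recovery therefore does not extend to pairs with few counts or to a spread that varies between genes. A gene shares reads where its sum in a CC library of its species departs from a whole number by over 0.01 counts. TPM were tested with limma 3.58.1 on log2(TPM + 0.1).

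Alternatives were TMM scaling over the pairs or over whole tables, an effective length offset, limma on log2(TPM + 1) and on log2(CPM + 0.5), DESeq2 1.42.0, other filters, a spread taken from the whole tables, all 8 libraries in 1 fit, the most abundant transcript of each gene, leaving out pairs that share reads, the replicate number as a block, a minimum log2 difference of 1, and leaving out each library. A crossed pairing and a fit on pairs alike in length, on 1 chromosome and sharing no reads were added after seeing the data.

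The members and lists were chosen with earlier results of these data known. The rule for named pairs took those outside the section of other genes, those of the lists, the 10 highest and 10 lowest differences and the pairs not tested. The labels do not say whether the pooled plants of the 2 libraries of a group were grown apart, so their spread may be technical. Reads carry no molecular identifiers, so limits of 3 counts and the counting intervals cover counting error only.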

Additional observations from a re-analysis of the deposited data

How the results depend on the processing

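The count of pairs that differed stayed between 68 and 83 when a library was left out, and the median log2 difference between -0.26 and -0.15. The count was 42 of 50 pairs without those that share reads and 27 of 34 among pairs alike in length, on 1 chromosome and sharing no reads. Fewer pairs were tested in both cases. In the fit on all pairs, 12 of these 34 were higher and 18 lower, against 11 and 16 when they were fitted on their own. In these 2 sets the up-regulated pairs lower in *O. rufipogon* numbered 20 and 14, and the down-regulated pairs higher in *O. rufipogon* 18 and 10. With a minimum log2 difference of 1, 20 down-regulated pairs were higher, by construction. The median pair lay at -0.10 with TMM over the pairs and at -0.089 with DESeq2. Both rescale the libraries, which by construction moves all pairs by nearly the same amount. It lay at -0.11 with at least 10 counts in every library and at -0.43 in the 34 pairs, where fewer pairs were tested. With log2(TPM + 1) and with log2(TPM + 0.1) it lay at -0.10, and the cause of that shift was not tested. Over all alternatives the median of the up-regulated pairs lay between -1.32 and -0.85 and that of the down-regulated pairs between 0.59 and 1.04.

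Of 59 named pairs, 38 kept their direction and their side of the threshold in each alternative that gave them a value; 25 had one without pairs that share reads, 16 among pairs alike in length and 54 with at least 10 counts in every library. Signs turned mostly with length, which the alternative itself changes. With log2(TPM + 1), log2(TPM + 0.1) and the effective length offset, in this order, the values were 0.51, 0.51 and 0.28 for *SAM2*, 0.29, 0.31 and 0.066 for *HRZ1*, 0.48, 0.48 and 0.24 for OS12G0568500, 0.29, 0.30 and 0.057 for *IRO2*, -0.65, -0.68 and -0.91 for *IRO3*, -0.46, -0.49 and -0.74 for OS08G0369000, -1.09, -1.10 and -1.21 for *ARD2*, 0.73, 0.74 and 0.49 for *IPP*, and 1.81, 1.81 and 1.57 for *OsCDT5*. OS06G0554800 turned to -0.089 in both TPM fits, and OS01G0906000 and *SPX2* to -0.090 and -0.12 with the offset. *OsCDT5*, at -0.0057 in the reported fit, was 0.12 with TMM over the pairs, 0.0055 with TMM in whole tables, 0.13 with DESeq2, and between -0.064 and 0.051 when a library was left out, where *IRO3* lay between -0.13 and 0.33.

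Nothing in the sources says that libraries of the same number belong together. With the replicate number as a block, 70 pairs differed, and with the numbers crossed, tried because same-numbered libraries deviated with a correlation of -0.22 over pairs, 78 did. *SAM2*, *IRT2* and OS01G0952900 did not pass with the block, and no other call among the 59 named pairs changed with it.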
